A study of Mus musculus with 11 samples.

Results

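To read the makeup of the sorted stem and progenitor cells in p53 mutant and p53-deficient mice, 10 marker genes were followed in the RNA-seq data. Of these, 7 mark long-term hematopoietic stem cells (HSCs), namely *Procr*, *Slamf1*, *Fgd5*, *Hlf*, *Mllt3*, *Ctnnal1*, and *Vwf*. Another 2, *Cd34* and *Cd48*, mark multipotent progenitors, and *Ly6a* encodes Sca1, the antigen used in the sort. The 10 genes were chosen by symbol from the 12647 genes of the count table, and all 10 passed the filter on low counts. The cells were LSKs (Lin-Sca1+Kit+ bone marrow cells) of young C57BL/6 mice, with 3 libraries from each of 3 genotypes. In p53+/+ mice, both alleles were the HUPKI allele, a knock-in that carries human p53 sequence at the mouse locus. The p53R248W/+ mice were heterozygous for the R248W missense substitution in the p53 DNA-binding domain, made in the HUPKI allele, and the p53-/- mice lacked p53 in all cells. The paper's methods state a backcross to C57BL/6 for the p53+/+ and p53R248W/+ mice and none for the p53-/- mice. These were constitutive alleles with no Cre driver, and no treatment was named in the labels of the LSK samples.

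HSCs sit at the top of the LSK gate together with multipotent progenitors, which lack long-term self-renewal and divide more often. The surface proteins CD150, encoded by *Slamf1*, and CD48 belong to the SLAM family of receptors, and the combination of CD150 without CD48 is a standard definition of mouse HSCs. CD34 is low or absent on adult mouse long-term HSCs and present on multipotent progenitors, while EPCR, encoded by *Procr*, is high on HSCs. Bulk RNA averages over all of these cells, so that fewer cells of a type and less RNA per cell cannot be told apart.

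The depth on genes ranged from 18021375 to 29750702 counts per library. Levels are given as CPM (counts relative to library size) scaled with TMM factors, and comparisons between genes as CPM per kilobase of the deposited gene length. All SDs are over 3 libraries, and p-values measure the spread between these libraries. As a check of genotype, *Cdkn1a*, which encodes the p53 target p21, was between 8.27 and 17.8 CPM in p53-/- libraries and between 43.6 and 67.0 CPM in p53+/+ libraries, and on the log2 scale it fell by 2.07 (SE 0.30, edgeR adjusted p = 0.00914). *Trp53* itself was read at 112 to 129 CPM in p53-/- libraries and at 125 to 376 CPM in p53+/+ libraries. These ranges overlapped, so the *Trp53* count alone did not separate the 2 genotypes. *Kit* and *Ly6a*, the positive markers of the gate, were detected in every library, with *Kit* between 427 and 861 CPM. Y-linked genes were above 1 CPM in 3 libraries, p53+/+ replicate 2 and p53R248W/+ replicates 2 and 3, and below it in all 3 p53-/- libraries, and the labels do not give the sex of the mice.

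Libraries of a genotype were not alike for these markers. Among p53+/+ libraries, replicate 3 was the lowest for 8 of the 10 genes and the highest for *Cd48*. Among p53R248W/+ libraries, replicate 1, the deepest library, was the highest for 7 of the 10, and the lowest for *Fgd5* and *Vwf*. Values without these libraries are given beside several of the results. The sample titles carry library names of a shared form for p53+/+ and p53R248W/+ and of another form for p53-/-. Whether the p53-/- libraries were prepared apart is not stated, and an effect of this could not be told apart from loss of p53.

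Of the 10 markers, only *Hlf* differed past the threshold (adjusted p below 0.05) when p53-/- LSKs were compared with p53+/+ LSKs, which asks what loss of p53 does to the marker profile. This is 1 of 10 genes called beside 3.50% of all 12625 genes tested, and 5 of 10 with an unadjusted p below 0.05 beside 23.4%. In 7 of the 10 the libraries of the 2 genotypes did not overlap, beside 31.4% of all genes. Of these 7, *Procr*, *Fgd5*, *Hlf*, *Mllt3*, and *Ly6a* were higher in every p53-/- library, and *Ctnnal1* and *Cd48* were lower in every p53-/- library. DESeq2 called 3 markers, *Hlf*, *Procr*, and *Mllt3*, and edgeR called *Hlf* again with both libraries that stood apart left out. Over all alternatives, calls among all genes ranged from 37 to 1537, beside 442 in the main fit. The 3.50% is thus not the background of these counts. The median log2 fold change was 0.41 over the 10 markers and -0.0012 over all genes tested.

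When p53R248W/+ LSKs were compared with p53+/+ LSKs, which asks what a heterozygous missense mutation does, none of the 10 markers passed the edgeR test (0 of 10, beside 0.00792% of all genes), none had an unadjusted p below 0.05 (0 of 10, beside 0.958%), and DESeq2 also called 0. Only *Mllt3* had libraries that did not overlap, 1 of 10 beside 5.04% of all genes. The median log2 fold change of the 10 was 0.10, beside 0.012 over all genes.

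For p53R248W/+ against p53-/- LSKs, *Hlf* again was the marker past the threshold (1 of 10, beside 3.44% of all genes). An unadjusted p below 0.05 was found for 4 of 10, beside 21.0%, and 3 of 10 had libraries that did not overlap, beside 24.2%. *Procr* was called as well by DESeq2 and with both libraries that stood apart left out, for 2 of 10. Calls among all genes ranged from 46 to 1559 over all alternatives, beside 434 in the main fit, so 3.44% is not their background. The median log2 fold change was -0.29 over the 10 markers and 0.019 over all genes. The 3 comparisons share libraries, so their values are not independent of each other.

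**Figure D1:**
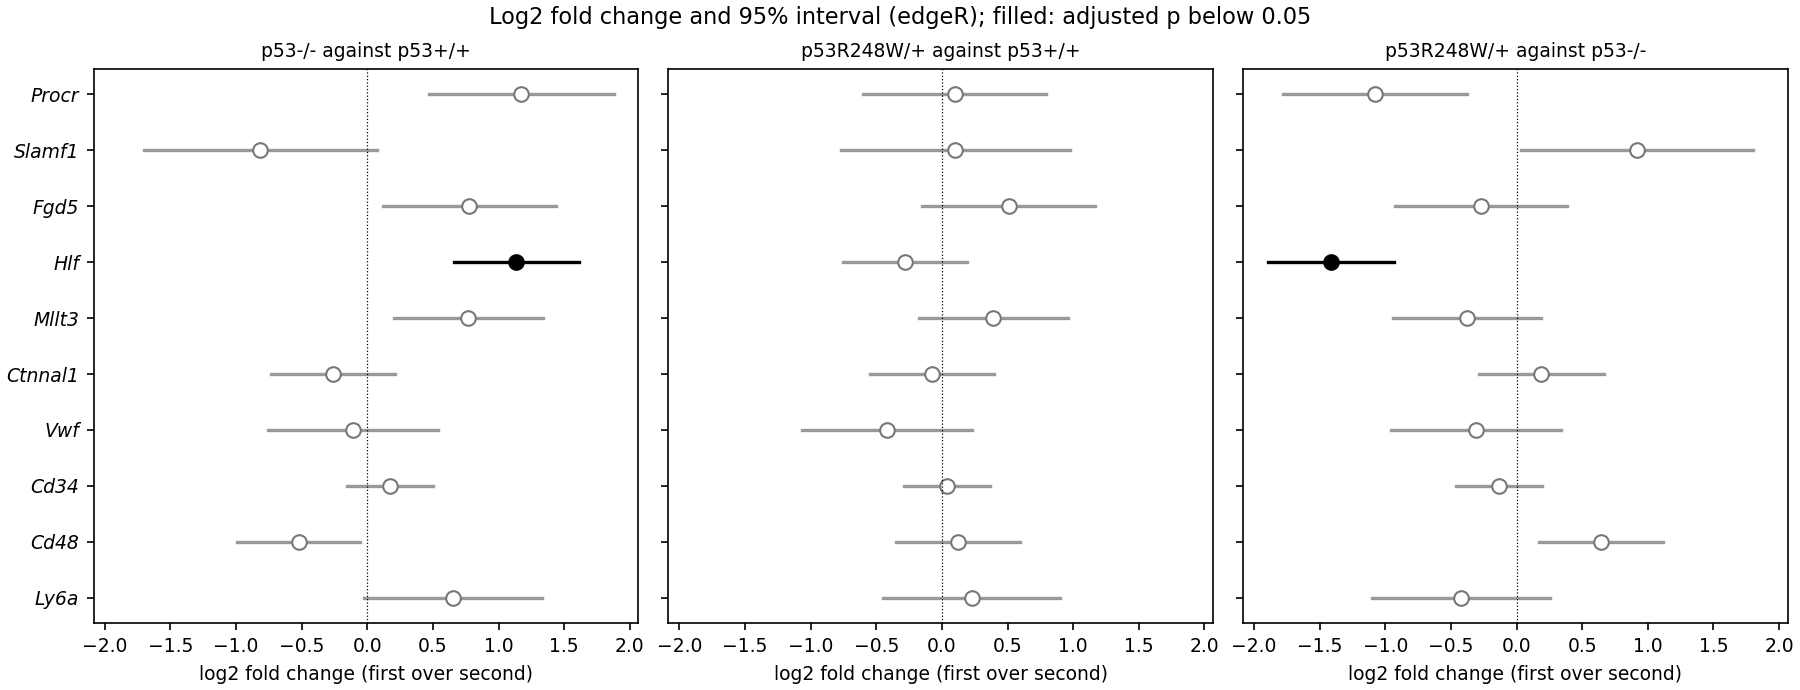
Log2 fold change of each marker (points, x axis) with its 95% interval (bars) from edgeR in the 3 comparisons, the first genotype over the second. Only *Hlf*, at 1.14 for p53-/- against p53+/+ and -1.41 for p53R248W/+ against p53-/-, is filled, and in the middle panel every interval spans 0.

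*Hlf* encodes a PAR bZIP transcription factor that is used as a marker of HSCs. Its level was 205, 192, and 118 CPM in p53+/+ libraries, 351, 362, and 418 CPM in p53-/- libraries, and 143, 118, and 163 CPM in p53R248W/+ libraries. The lowest p53-/- library was above the highest library of both other genotypes, while p53+/+ and p53R248W/+ libraries overlapped. The mean of p53-/- LSKs was 377 ± 35.7 CPM (SD, n = 3), and that of p53+/+ LSKs 171 ± 47.2 CPM (SD, n = 3). *Hlf* rose 2.20-fold in p53-/- against p53+/+ LSKs (95% interval 1.58 to 3.06, log2 fold change 1.14, SE 0.22, edgeR adjusted p = 0.0242), rank 123 of all genes by p. Against p53-/- LSKs, the log2 level in p53R248W/+ LSKs fell by 1.41 (SE 0.22, edgeR adjusted p = 0.00885), rank 49 of all genes. Between p53R248W/+ and p53+/+ LSKs the log2 fold change was -0.28, with a 95% interval from -0.75 to 0.19, and it was -0.49 without p53+/+ replicate 3.

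When single libraries were left out, the *Hlf* call for p53-/- against p53+/+ was lost for each of these 6 libraries but p53+/+ replicate 1. It was kept in all 10 other alternatives. Some of these left out p53+/+ replicate 2 or 3 together with p53R248W/+ libraries. The adjusted p by edgeR was 0.0613 without p53+/+ replicate 2, 0.0837 without p53+/+ replicate 3, 0.0598 without p53-/- replicate 1, 0.0701 without p53-/- replicate 2, and 0.0693 without p53-/- replicate 3. The log2 fold change then stayed between 0.92 and 1.22. Among the libraries under 1 CPM of Y-linked genes, the values were 1.22 for p53-/- against p53+/+ (edgeR adjusted p = 0.0265) and -1.41 for p53R248W/+ against p53-/- (edgeR adjusted p = 0.0926), the latter with a single p53R248W/+ library whose spread is assumed to be that of the others. Libraries with Y-linked genes above 1 CPM give no value of their own, since none is p53-/-.

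**Figure D2:**
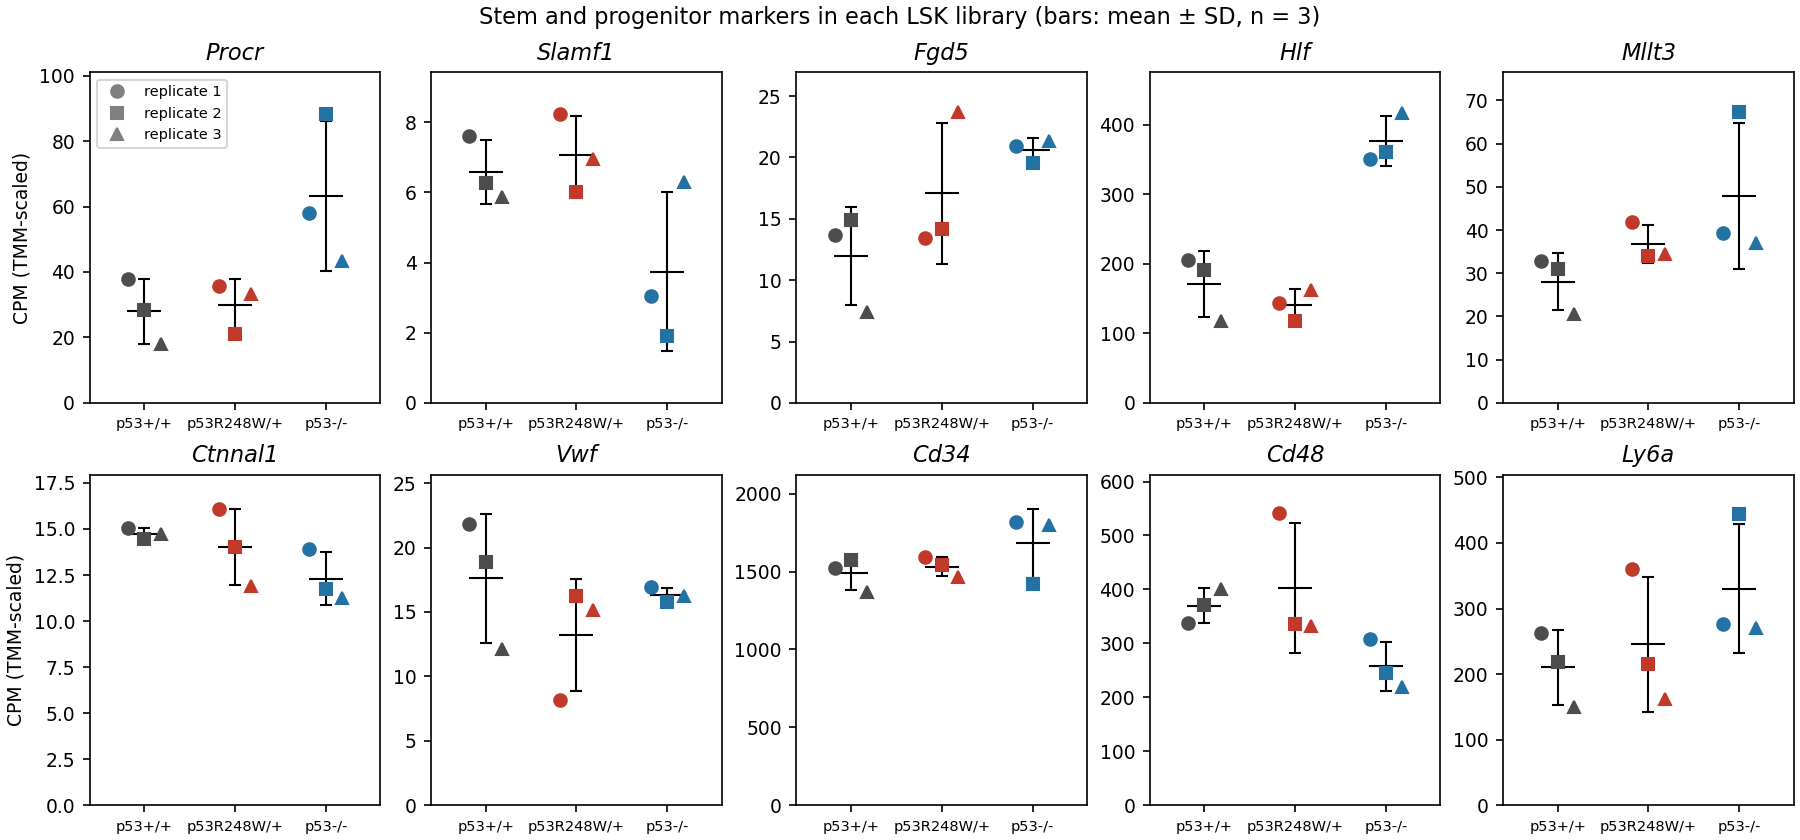
TMM-scaled CPM (y axis, from 0) of each marker in each library, by genotype (x axis), with the mean and SD of 3 libraries as bars and the replicate number as the symbol. The p53-/- points of *Hlf* sit between 351 and 418 CPM, above the 118 to 205 CPM of the other libraries, while *Slamf1* in p53-/- spreads from 1.90 to 6.29 CPM.

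*Procr* encodes the endothelial protein C receptor, which is high on dormant and repopulating HSCs. It was read at 37.7, 28.4, and 17.96 CPM in p53+/+, at 58.1, 88.3, and 43.5 CPM in p53-/-, and at 35.6, 21.2, and 33.2 CPM in p53R248W/+ libraries. All p53-/- libraries were above all others, but replicate 2 lay far above replicate 3. For p53-/- against p53+/+ the fold change was 2.26 (95% interval 1.39 to 3.67, log2 1.17, SE 0.32), close to that of *Hlf*, with an edgeR adjusted p of 0.0619 that missed the threshold. The adjusted p was 0.00687 by DESeq2, 0.0406 in an edgeR fit to the 6 libraries compared, 0.0419 with the replicate number as a block, 0.0495 without p53+/+ replicate 1, and 0.0330 without p53R248W/+ replicate 1. It was 0.226 without p53+/+ replicate 3, at a log2 fold change of 0.94, and 0.185 without p53-/- replicate 2, at 0.86. For p53R248W/+ against p53-/- the log2 fold change of *Procr* was -1.08 (SE 0.32, edgeR adjusted p = 0.0840), and the adjusted p was 0.0157 by DESeq2 and 0.0431 by edgeR without p53R248W/+ replicate 1. For p53R248W/+ against p53+/+ it was 0.10 (95% interval -0.60 to 0.80).

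The promoters of *Hlf* and *Procr* are shown because these 2 markers had the largest fold changes for p53-/- against p53+/+ and were highest in every p53-/- library. They are from RefSeq (GRCm38.p6, the assembly of the mm10 build), 250 bases before to 50 after the start, 5′ to 3′ on the strand of the gene, and 8 of the 10 markers had an entry. The *Hlf* window is chr11:90390868-90391167 on the minus strand, and the *Procr* window is chr2:155750967-155751266 on the plus strand. Capitals mark matches on either strand to a GATA motif (AGATAA), an ETS motif (CCGGAA), a RUNX motif (TGTGGT), a cAMP response element (TGACGTCA), or the PAR bZIP motif bound by HLF (TTACGTAA), which were chosen after the sequences had been seen.
Hlf: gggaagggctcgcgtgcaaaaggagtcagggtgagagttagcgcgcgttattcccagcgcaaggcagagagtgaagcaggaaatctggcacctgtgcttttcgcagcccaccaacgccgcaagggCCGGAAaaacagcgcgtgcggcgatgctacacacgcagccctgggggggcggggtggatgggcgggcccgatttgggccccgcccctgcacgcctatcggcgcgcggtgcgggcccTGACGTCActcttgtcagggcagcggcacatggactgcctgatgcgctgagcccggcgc
Procr: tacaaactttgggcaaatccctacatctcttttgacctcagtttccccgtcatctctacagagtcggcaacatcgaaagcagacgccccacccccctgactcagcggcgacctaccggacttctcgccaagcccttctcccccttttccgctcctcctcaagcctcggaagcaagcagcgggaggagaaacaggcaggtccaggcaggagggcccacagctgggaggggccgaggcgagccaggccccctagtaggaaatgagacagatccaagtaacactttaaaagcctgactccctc
The *Hlf* window holds the cAMP response element just before the start and an ETS motif further upstream, and none of the 5 motifs is in the *Procr* window. Of 32817 RefSeq promoters of the same length, 1.79% hold TGACGTCA, 14.9% CCGGAA, 11.2% AGATAA, 16.8% TGTGGT, and 0.119% TTACGTAA. GC content was 67.3% in the *Hlf* and 58.3% in the *Procr* window, beside a median of 52.7% over all promoters. The *Hlf* gene spans chr11:90336535-90390917 and lies 20.7 Mb from *Trp53* on the same chromosome, and *Procr* spans chr2:155751125-155755478.

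*Fgd5* and *Mllt3* were the other HSC markers with higher values in every p53-/- library. *Fgd5*, which encodes a guanine nucleotide exchange factor and is used in HSC reporter mice, was 13.7, 14.9, and 7.42 CPM in p53+/+ and 20.9, 19.5, and 21.4 CPM in p53-/- libraries. In p53R248W/+ libraries it was 13.4, 14.2, and 23.7 CPM. The p53-/- values were tight, with a coefficient of variation of 4.65%, while replicate 3 of p53R248W/+ lay above all p53-/- libraries. The log2 fold change of *Fgd5* was 0.78 for p53-/- (SE 0.30, edgeR adjusted p = 0.152) and 0.51 for p53R248W/+ (SE 0.30, edgeR adjusted p = 0.999996), each against p53+/+. Without p53+/+ replicate 3 they were 0.53 and 0.26, and without p53R248W/+ replicate 3 the latter was 0.20.

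*Mllt3* encodes AF9, a subunit of the super elongation complex that supports self-renewal of human HSCs. Its levels were 32.7, 30.9, and 20.5 CPM in p53+/+, 39.4, 67.2, and 36.9 CPM in p53-/-, and 41.9, 34.1, and 34.5 CPM in p53R248W/+ libraries. *Mllt3* was thus the only marker whose libraries lay above every p53+/+ library in both other genotypes, with no call in either. Against p53+/+, the log2 fold change was 0.77 in p53-/- (95% interval 0.20 to 1.34, edgeR adjusted p = 0.108) and 0.39 in p53R248W/+ (95% interval -0.18 to 0.96, edgeR adjusted p = 0.999996). DESeq2 gave an adjusted p of 0.0446 for p53-/-. The p53-/- value was 0.44 without p53-/- replicate 2, the library with the highest *Mllt3*, and 0.59 without p53+/+ replicate 3. The p53R248W/+ value was 0.21 without p53+/+ replicate 3, 0.28 without p53R248W/+ replicate 1, and 0.10 without both.

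*Ctnnal1* and *Vwf* did not share this order. *Ctnnal1*, which encodes alpha-catulin and is nearly restricted to HSCs in bone marrow, was 15.1, 14.4, and 14.7 CPM in p53+/+ libraries, the tightest of the 10 in this genotype, with a coefficient of variation of 2.11%. It was 13.9, 11.8, and 11.2 CPM in p53-/- and 16.1, 14.0, and 11.9 CPM in p53R248W/+ libraries. Although every p53-/- library was below every p53+/+ library, the log2 fold change was -0.26 with a 95% interval from -0.74 to 0.22 (edgeR adjusted p = 0.501).

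*Vwf* encodes von Willebrand factor, made by endothelium, megakaryocytes, and the platelet-biased part of the HSC pool. It was 21.9, 18.9, and 12.1 CPM in p53+/+, 16.9, 15.8, and 16.3 CPM in p53-/-, and 8.19, 16.2, and 15.2 CPM in p53R248W/+ libraries. All 3 genotypes overlapped. The log2 fold change was -0.11 in p53-/- (95% interval -0.76 to 0.54) and -0.42 in p53R248W/+ LSKs (95% interval -1.07 to 0.23), each against p53+/+, and the latter was -0.18 without p53R248W/+ replicate 1. The value for p53-/- was 0.057 with a covariate for Y-linked genes and 0.075 without p53+/+ replicate 1, so its sign differed between settings. Of the list of endothelial markers, 6 of 9 were in the table. Their summed level was 117 to 159 CPM in p53+/+, 55.1 to 82.1 CPM in p53-/-, and 106 to 164 CPM in p53R248W/+ libraries, of which *Pecam1*, also expressed by HSCs and progenitors, made up most. *Cdh5*, *Sox17*, and *Sox7* were not in the table used here. The 9 megakaryocyte markers measured summed to 141 to 212, 141 to 152, and 154 to 166 CPM, with *Itga2b* the most abundant, and their part in the *Vwf* values was not tested.

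Summed over the 7 HSC markers, the level was 334, 306, and 196 CPM in p53+/+, 503, 566, and 553 CPM in p53-/-, and 267, 224, and 288 CPM in p53R248W/+ libraries. *Hlf* was the most abundant of the 7 in every genotype and made up most of each sum. All p53-/- sums lay above all others, and p53R248W/+ sums lay within the range of p53+/+ sums.

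In the SLAM pair, *Slamf1*, an HSC marker, and *Cd48*, a progenitor marker, both had lower means in p53-/- than in p53+/+ LSKs. *Hlf* and *Procr* had higher ones. *Slamf1*, whose product CD150 is present on HSCs, was the least abundant marker in CPM, with 7.61, 6.28, and 5.86 CPM in p53+/+, 3.05, 1.90, and 6.29 CPM in p53-/-, and 8.23, 6.02, and 6.95 CPM in p53R248W/+ libraries. These values rest on 42 to 229 reads per library. Replicates 1 and 2 of p53-/- were below all other libraries, and replicate 3 was within the range of p53+/+. The log2 fold change for p53-/- against p53+/+ was -0.81 (95% interval -1.70 to 0.074, edgeR adjusted p = 0.252), and -1.41 without p53-/- replicate 3 (edgeR adjusted p = 0.0827). For p53R248W/+ it was 0.10 against p53+/+ (95% interval -0.77 to 0.98) and 0.92 against p53-/- (SE 0.41, edgeR adjusted p = 0.223).

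*Cd48*, which encodes a SLAM receptor carried by most progenitors and absent from HSCs, was 337, 371, and 402 CPM in p53+/+ and 308, 245, and 219 CPM in p53-/- libraries. In p53R248W/+ libraries it was 541, 335, and 331 CPM. All p53-/- libraries were below all others, with p53R248W/+ replicate 1 far above the rest. The log2 fold change was -0.52 for p53-/- against p53+/+ (SE 0.22, 95% interval -0.995 to -0.052, edgeR adjusted p = 0.174), and 0.65 for p53R248W/+ against p53-/- (SE 0.22, edgeR adjusted p = 0.116). Neither passed the threshold, and for p53R248W/+ against p53+/+ the value was 0.12, or -0.16 without p53R248W/+ replicate 1. Without that library the value for p53R248W/+ against p53-/- was 0.35 (edgeR adjusted p = 0.212).

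*Slamf1* and *Cd48* are neighbors on chromosome 1, at chr1:171767131-171801184 and chr1:171681245-171705258, 61.9 kb apart. Their promoters are shown as the pair behind the CD150 and CD48 gate, with the same motifs in capitals. Both are on the plus strand, at chr1:171766882-171767181 and chr1:171681742-171682041. The *Cd48* window lies wholly inside the span given for the gene, so its start is downstream of the first base of that span.
Slamf1: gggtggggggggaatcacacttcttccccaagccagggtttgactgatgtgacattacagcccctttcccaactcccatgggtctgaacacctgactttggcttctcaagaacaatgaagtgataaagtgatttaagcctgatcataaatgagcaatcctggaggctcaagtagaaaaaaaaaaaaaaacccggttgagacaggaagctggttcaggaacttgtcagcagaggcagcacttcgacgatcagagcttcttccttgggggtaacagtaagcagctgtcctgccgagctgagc
Cd48: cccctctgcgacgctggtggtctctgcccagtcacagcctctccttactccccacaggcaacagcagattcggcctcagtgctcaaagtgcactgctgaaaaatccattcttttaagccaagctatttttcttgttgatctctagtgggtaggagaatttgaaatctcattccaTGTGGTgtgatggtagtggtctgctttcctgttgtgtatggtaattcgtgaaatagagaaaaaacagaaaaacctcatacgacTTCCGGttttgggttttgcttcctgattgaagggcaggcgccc
The *Cd48* window holds a RUNX motif and, after the start, an ETS motif on the opposite strand, and none of the 5 motifs is in the *Slamf1* window. GC content was 49.0% for *Slamf1* and 47.3% for *Cd48*, both below the median over all promoters.

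To compare the 2 genes without library scaling, the log2 ratio of *Slamf1* to *Cd48*, each per kilobase, was taken within each library. It was -6.70, -7.12, and -7.34 in p53+/+, -7.90, -8.25, and -6.36 in p53-/-, and -7.27, -7.03, and -6.81 in p53R248W/+ libraries. The lowest and the highest ratio of all 9 libraries were both in p53-/- LSKs. The mean was -7.05 ± 0.32 in p53+/+, -7.50 ± 1.01 in p53-/-, and -7.04 ± 0.23 in p53R248W/+ LSKs (SD, n = 3 each). By a two-sided exact permutation test, p was 0.50 for p53-/- against p53+/+ (difference -0.45), 1.0 for p53R248W/+ against p53+/+ (difference 0.014), and 0.50 for p53R248W/+ against p53-/- (difference 0.46), or 0.75, 1.0, and 0.75 after adjustment over these 3 tests. The smallest p that 3 against 3 libraries allow is 0.1. Without p53-/- replicate 3 the differences that involve p53-/- were -1.02 and 1.03.

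**Figure D3:**
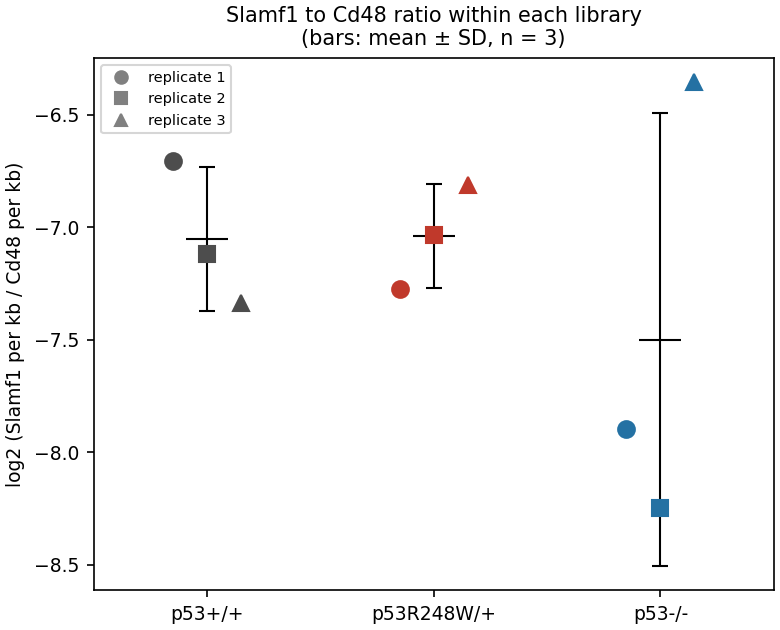
Log2 ratio of *Slamf1* to *Cd48* per kilobase (y axis) in each library, by genotype (x axis), with the mean and SD of 3 libraries as bars. Replicates 1 and 2 of p53-/- lie at -7.90 and -8.25, below all other libraries, and replicate 3 at -6.36 lies above them.

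*Cd34* encodes the sialomucin CD34. Its level was 1525, 1576, and 1372 CPM in p53+/+, 1821, 1423, and 1798 CPM in p53-/-, and 1591, 1542, and 1465 CPM in p53R248W/+ libraries, so that the genotypes overlapped. Its estimates were the most precise of the 10, with a log2 fold change of 0.17 for p53-/- (95% interval -0.16 to 0.50) and 0.040 for p53R248W/+ (95% interval -0.29 to 0.37), each against p53+/+.

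*Ly6a* was 262, 219, and 149 CPM in p53+/+, 276, 444, and 271 CPM in p53-/-, and 360, 216, and 161 CPM in p53R248W/+ libraries. Every p53-/- library was above every p53+/+ library, with replicate 2 well above the other two, and the log2 fold change was 0.65 (95% interval -0.026 to 1.33, edgeR adjusted p = 0.231). Without p53-/- replicate 2 it was 0.38. As Sca1 protein set the gate, the *Ly6a* level was read in cells already selected for it. *Kit*, the other positive marker of the gate, had a log2 fold change of 0.075 for p53-/- against p53+/+, with overlapping libraries.

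Per kilobase of gene length, the progenitor and sort markers exceeded the HSC markers in all genotypes. In p53+/+ LSKs, *Cd34* was at 569 ± 40.5, *Cd48* at 324 ± 28.3, and *Ly6a* at 210 ± 56.7 CPM per kilobase (SD, n = 3 each), with no overlap of their ranges. They were followed by *Hlf* at 30.3 ± 8.33 and *Procr* at 18.6 ± 6.58 CPM per kilobase, whose ranges overlapped. *Mllt3* at 4.51 ± 1.06 and *Ctnnal1* at 3.999 ± 0.084 CPM per kilobase overlapped as well. At the low end, *Slamf1* at 2.45 ± 0.34, *Fgd5* at 2.13 ± 0.71, and *Vwf* at 1.99 ± 0.57 CPM per kilobase did not differ beyond their ranges. The order was the same in p53R248W/+ LSKs except that *Fgd5* and *Slamf1* changed places, with overlapping ranges. In this genotype the ranges of *Cd48* and *Ly6a* overlapped, as did those of *Ctnnal1* and *Fgd5*. Unlike in p53+/+ LSKs, those of *Mllt3* and *Ctnnal1* did not overlap, nor did those of *Slamf1* and *Vwf*. In p53-/- LSKs, *Ly6a* at 329 ± 98.1 was above *Cd48* at 225 ± 40.3 CPM per kilobase, with ranges that just failed to overlap (270.4 to 443 and 191 to 269.96). There *Hlf*, at 66.5 ± 6.31, and *Procr*, at 42.1 ± 15.2 CPM per kilobase, no longer overlapped, and *Slamf1*, at 1.39 ± 0.85, had the lowest mean, with a range that overlapped that of *Vwf*.

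**Figure D4:**
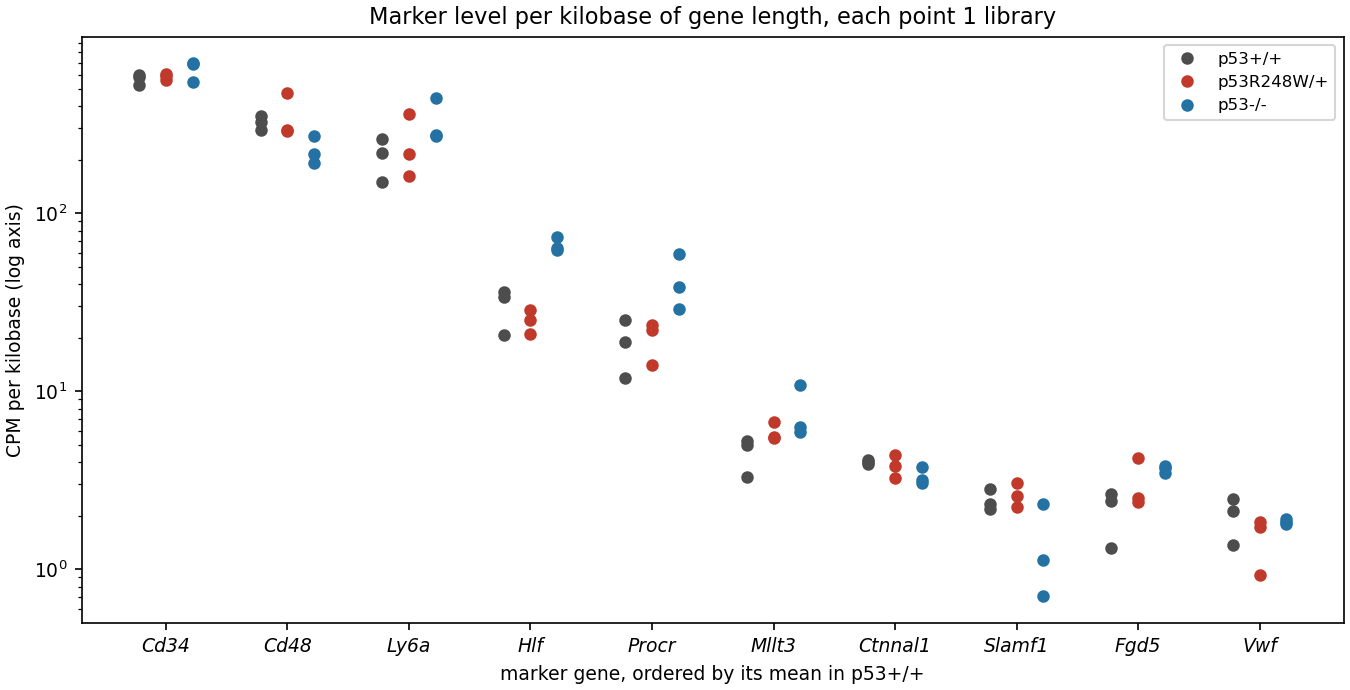
CPM per kilobase of gene length (y axis, log scale) of each marker (x axis, ordered by its mean in p53+/+), each point 1 library, colored by genotype. *Cd34*, *Cd48*, and *Ly6a* lie above all HSC markers in every library, and the p53-/- points of *Hlf* and *Procr* lie above those of the other genotypes.

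Other genes of the same kinds were read from lists compiled by hand. All lists were made with earlier results of these data known, so their counts by direction are not independent of the marker results. Over all genes, 49.9% were higher in p53-/- than in p53+/+ LSKs, and 51.7% were higher in p53R248W/+ than in p53-/- LSKs. Of 21 further HSC-associated genes, 17 were higher and 4 lower in p53-/- than in p53+/+ LSKs, none was called, and 7 had an unadjusted p below 0.05 (beside 23.4% of all genes), with a median log2 fold change of 0.45 beside -0.0012 over all genes. Against p53R248W/+ LSKs, 19 of the 21 were higher in p53-/- and 4 passed the edgeR test, beside 3.44% of all genes. Among these were *Esam*, an adhesion molecule of HSCs and endothelium, which was lower in p53R248W/+ with a log2 fold change of -0.93 (adjusted p = 0.0489), *Meis1*, a homeodomain cofactor of HOX proteins, at -0.74 (adjusted p = 0.0366), and *Jam3*, a junctional adhesion molecule, at -1.30 (adjusted p = 0.0499). *Meis1* was 456, 432, and 478 CPM in p53-/- and 254, 253, and 311 CPM in p53R248W/+ libraries, which did not overlap. Between p53R248W/+ and p53+/+ LSKs, 5 of the 21 were higher and 16 lower, while 52.5% of all genes were higher. None of the 21 was called, and their median was -0.11, beside 0.012 over all genes. By gene set enrichment on RNA-seq, the paper reports an HSC signature enriched in p53 mutant stem and progenitor cells. That gene set was not tested here.

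Of 14 further progenitor genes, 10 were lower in p53-/- than in p53+/+ LSKs with a median log2 fold change of -0.27 and no call. Against p53-/- LSKs, 12 of the 14 were higher in p53R248W/+ LSKs, with a median of 0.36. In the SLAM family, to which *Slamf1* and *Cd48* belong, 8 of 9 genes were lower in p53-/- than in p53+/+ with no call, and *Slamf6*, a receptor of lymphoid cells, was called in p53R248W/+ against p53-/- at 1.79 (edgeR adjusted p = 0.0424), at 1.36 to 6.65 CPM in these libraries. *Cd244a* was not in the table used here, and *Cd244* was.

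Of 25 cell cycle genes, 24 were lower in p53-/- than in p53+/+ LSKs, with a median log2 fold change of -0.52, and *Ccne2*, a cyclin E gene, was higher at 0.45. Past the threshold were 2 of 25, beside 3.50% of all genes, the proliferation antigen gene *Mki67*, at -2.34 (edgeR adjusted p = 0.0255), and *Top2a*, which encodes a topoisomerase of dividing cells, at -1.64 (edgeR adjusted p = 0.0234). *Mki67* was 17.1, 19.7, and 21.998 CPM in p53-/-, 68.3, 108, and 121 CPM in p53+/+, and 28.2, 124, and 134 CPM in p53R248W/+ libraries, where replicate 1 was close to the p53-/- range. In p53R248W/+ against p53-/- LSKs the 2 genes were called at 2.28 (adjusted p = 0.0253) and 1.72 (adjusted p = 0.0183) by edgeR. The paper stained LSKs and long-term HSCs for the protein of *Mki67* and states that loss of p53 makes them less quiescent. It also reports more of both cell types in p53-/- marrow. The lower *Mki67* RNA in p53-/- LSKs goes the other way from that staining, and the reason for this was not tested. Whether the *Hlf* difference follows from a different share of dividing cells was not tested.

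**Figure D5:**
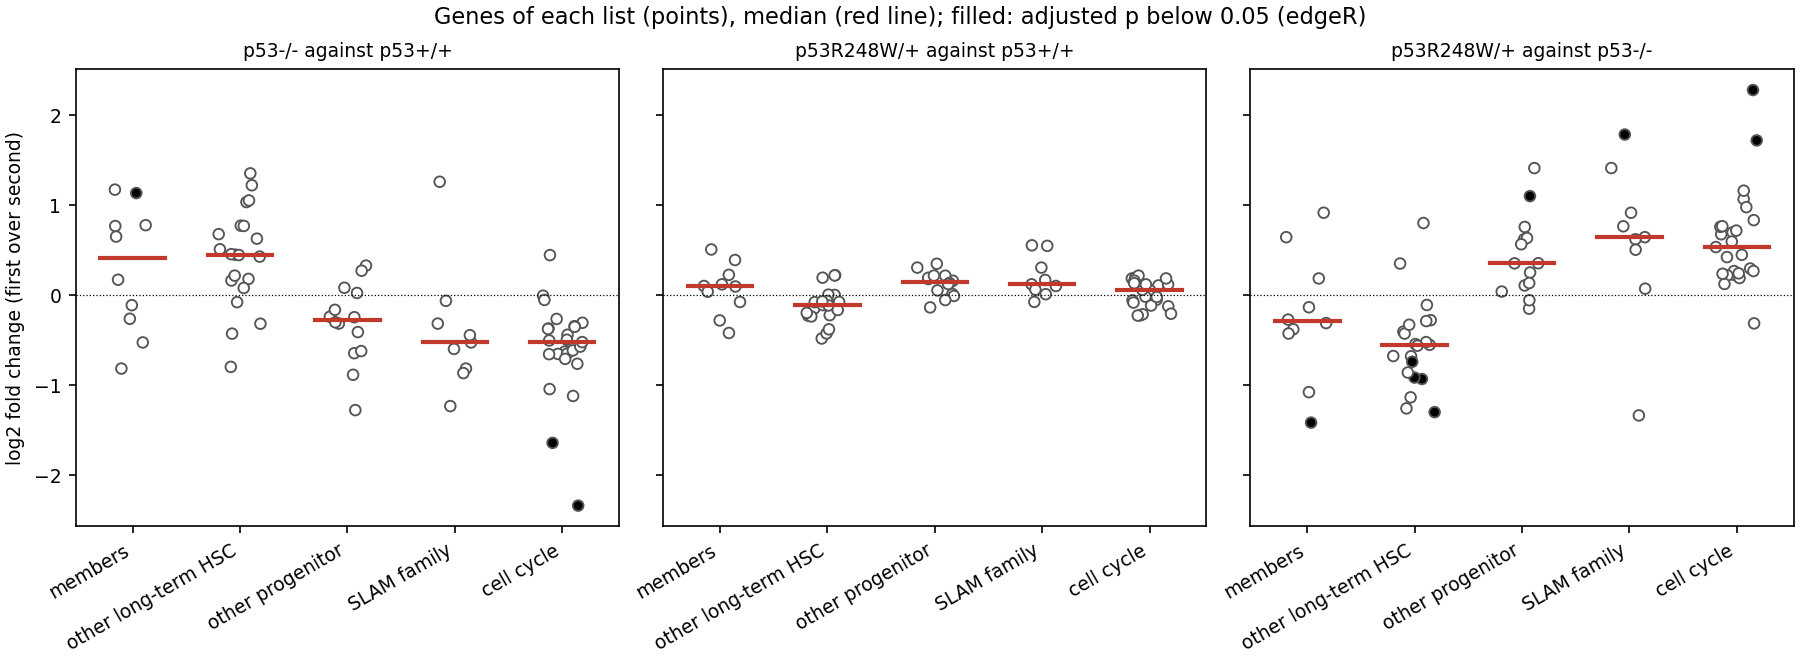
Log2 fold change (y axis) of every measured gene of the marker set and of 4 hand-compiled lists (x axis) in the 3 comparisons, with the list's median as a red line and genes past an edgeR adjusted p of 0.05 filled. In the left panel, the medians are 0.41 for the 10 markers, 0.45 for other HSC genes, -0.27 for other progenitor genes, -0.52 for the SLAM family, which holds *Slamf1* and *Cd48* again, and -0.52 for the cell cycle.

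Markers of more mature cells were read as well. The 13 granulocyte and monocyte genes measured were all lower in p53-/- than in p53+/+ LSKs by log2 fold change. The median was -0.98, the range -7.93 to -0.19, and none was called. The gene at -7.93 had an SE of 2.28 and ran from 2.27 to 559 CPM among p53+/+ libraries. In p53R248W/+ against p53-/- LSKs, 2 of 13 were called, beside 3.44% of all genes. These were *Mpo* (1.76, edgeR adjusted p = 0.00778) and *Ctsg* (1.58, edgeR adjusted p = 0.0281), both encoding granule enzymes. The 13 genes summed to 2903, 8397, and 4188 CPM in p53+/+, 2393, 2571, and 2159 CPM in p53-/-, and 5603, 9877, and 4420 CPM in p53R248W/+ libraries, with *Mpo* the most abundant. In both p53+/+ and p53R248W/+ LSKs, replicate 2 stood far above the other libraries of its genotype. Of 6 erythroid genes measured, 3 were higher and 3 lower in p53-/- than in p53+/+ LSKs, with a median log2 fold change of 0.067. Of these, *Car2*, a carbonic anhydrase gene also expressed by early progenitors, rose in p53-/- against p53+/+ LSKs by a log2 fold change of 0.85 (edgeR adjusted p = 0.0289) and was called in p53R248W/+ against p53-/- at -0.82 (edgeR adjusted p = 0.0309). The 4 adult globin genes of that list were not in the table used here. The 8 B lymphoid genes summed to 77.1 to 127, 91.6 to 106, and 101 to 138 CPM and the 6 T and NK genes to 323 to 339, 209 to 281, and 332 to 425 CPM in p53+/+, p53-/-, and p53R248W/+ libraries, led by *Cd79b* and *Nkg7*. Alone, *Nkg7* was 308 to 328, 197 to 267, and 314 to 407 CPM, so it made up most of the T and NK sum. *Cd3e*, *Cd3d*, *Cd3g*, and *Cd8b1* of that list and *Pax5* of the B lymphoid list were not in the table used here. *Nkg7* was called in p53R248W/+ against p53-/- at 0.69 (edgeR adjusted p = 0.0479), as was *Pecam1* of the endothelial list at 1.06 (edgeR adjusted p = 0.0415), in a list with a median of -0.13 and 4 of its 6 measured genes lower in p53R248W/+. No measured gene of these lists was at 0 in all libraries of a genotype. Genes with under 37 counts in total were absent from the table, so this says little about which cell types were present. The part of these cell types in the marker differences was not tested.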

How the data were processed

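RNA was sequenced from LSKs of 3 genotypes with 3 libraries each. The methods describe oligo(dT) selection and random hexamer priming, while the labels name a SMART-Seq kit. The authors deposited raw counts, whole numbers of reads for each gene, with no normalization. STAR 2.5.2b, featureCounts, Subread 1.5.0, edgeR, and the build mm10 are named in the submitters' processing notes, and the annotation behind the counts and the deposited gene lengths is not given in the sources used here. The table also holds the authors' own fold changes and p-values between genotypes, which were not used. Over the 9 libraries no gene had a total under 37 counts, so genes with fewer reads could not be read. H3K27me3 ChIP-seq samples were not analysed here.

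The main test was edgeR 4.0.16 under R 4.3.3 (filterByExpr by genotype, TMM, a single quasi-likelihood fit to 9 libraries, Benjamini-Hochberg over 12625 genes, threshold 0.05). Standard errors were taken from the fold change and the F statistic. The *Slamf1* to *Cd48* ratio was tested by exact permutation. Alternatives included limma-voom (limma 3.58.1), DESeq2 1.42.0, other size factors, other filters, a replicate block, a covariate for Y-linked genes, and leaving out libraries. Scripts were tested on simulated data. Where the replicates came from is not stated in the labels, so p-values may in part measure technical spread. Y-linked genes summed to 0.10, 110, and 0.17 CPM in p53+/+ libraries and to 0.22, 69.8, and 184 CPM in p53R248W/+ libraries. Libraries within each of these genotypes thus did not all come from the same sample, while the p53-/- libraries cannot be told apart this way. No libraries were duplicates by a chi-square test of their counts.

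The markers and lists were chosen with earlier results of these data known. Named genes were all 10 markers, *Trp53*, *Cdkn1a*, *Kit*, the called genes of each list (at most 4 by fold change), and the most abundant gene of lists of other cell types, and 2 called genes of these lists are not reported here. Python 3.11.15 was used for tables and figures.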

Additional observations from a re-analysis of the deposited data

How the results depend on the processing

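The direction and the side of the threshold of the 10 markers in 3 comparisons held in 539 of 570 alternatives, with 16 changes of sign, 9 calls gained, and 6 lost; the cause of these was not tested. Called markers for p53-/- against p53+/+ numbered 3 by DESeq2, 2 with the replicate block, 2 in the fit to the 6 libraries compared, and 0 to 2 when single libraries were left out. For p53R248W/+ against p53-/- they numbered 2 by DESeq2, 0 among libraries under 1 CPM of Y-linked genes (edgeR, with a single p53R248W/+ library), 2 without p53+/+ replicate 3 and p53R248W/+ replicate 1, and 1 to 2 when single libraries were left out. These sets of libraries were chosen after seeing the data. For p53R248W/+ against p53+/+ no alternative called a marker.

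No value that changed sign was called. For p53-/- against p53+/+, *Vwf* had a log2 fold change of 0.057 with the Y-linked covariate and -0.32 to 0.075 when single libraries were left out. For p53R248W/+ against p53+/+, leaving out single libraries gave -0.14 to 0.37 for *Procr*, -0.033 to 0.22 for *Slamf1*, -0.20 to 0.029 for *Ctnnal1*, -0.017 to 0.081 for *Cd34*, -0.16 to 0.24 for *Cd48*, -0.17 to 0.46 for *Ly6a*, and -0.13 to 0.19 for the *Slamf1* to *Cd48* ratio. Without both libraries that stood apart the values were -0.29 for *Procr*, -0.10 for *Slamf1*, -0.048 for *Cd34*, -0.091 for *Cd48*, and -0.35 for *Ly6a*. Among libraries under 1 CPM of Y-linked genes, *Ctnnal1* was 0.095, and *Ly6a* was 0.11 for p53R248W/+ against p53-/-.

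Same-numbered libraries did not deviate together in every pair, with correlations of 0.361, 0.543, and 0.0388 between p53R248W/+ and p53+/+ and -0.0946 to 0.0057 between p53-/- and p53+/+, so the numbers were not taken as pairs. In the former comparison, but not in those with p53-/-, every library correlated best with its own number. The library names of p53R248W/+ and p53+/+ are also alike in form, unlike those of p53-/-. With the replicate block, calls over all genes were 882 instead of 442, 2 instead of 1, and 672 instead of 434 in the 3 comparisons, and the ratio differences were -0.45, 0.014, and 0.46, which a block leaves unchanged by construction. Over all alternatives these calls ranged from 37 to 1537, 0 to 6, and 46 to 1559. *Slamf1* was read from 42 to 229 counts per library, the fewest of the 10 markers.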
